A study of Mus musculus with 2 samples.

Results

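Barcodes with fewer than 200 detected genes in the day 1 post-fracture library, which are below the nuclear limits of the study's methods, were described. Whether their RNA came from outside nuclei or from nuclei of low depth was not tested. These barcodes were summed and set beside the sum of the barcodes that passed those limits, called nuclei here: 200 to 5000 genes, under 0.5% of UMIs (unique molecular identifiers, 1 for each RNA molecule captured) on mitochondrial mt- genes and under 2.5% on ribosomal Rps and Rpl genes. Of 48987 barcodes in this library and 50433 in the series, 43464 had under 200 genes and 2405 were nuclei. The pool under 200 genes was thus chosen by gene number alone, and the nuclei also by the mt- and Rps/Rpl shares. These limits kept 2405 of the 5523 barcodes with 200 to 5000 genes. The study also removed contamination from myogenic cells, which was not done here, so these 2405 are not its final set of nuclei. Gene number and the mt- and Rps/Rpl shares are given as a description only. The library was made from the scraped periosteum and hematoma of injured tibias of C57BL6 mice at day 1 post-fracture, pooled from 3 or 4 animals. Nuclei were dounced from the tissue, stained with Sytox-AADvanced, sorted, and loaded for droplet-based single-nucleus RNAseq. The labels give 10000 to 20000 loaded nuclei, fewer than the barcodes in the counts. The other library of the series, from C57BL6 mice at day 5 post-musculoskeletal traumatic injury (MTI), had 27 barcodes under 200 genes and was not compared.

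When tissue is broken open, RNA from lysed cells spreads through the suspension, and every droplet then captures some of it with or without a nucleus. Cytoplasmic messenger RNA and mitochondrial transcripts are released this way, while nuclei keep unspliced transcripts of long genes and noncoding RNAs such as Malat1 and Neat1, which stay in the nucleus. A fracture hematoma at this stage holds red blood cells, platelets, neutrophils, monocytes and macrophages, together with torn muscle fibers and bone and periosteal cells.

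The barcodes under 200 genes held 6848386 UMIs, 72.9% of the library, with 72 to 778 UMIs each and a median of 148. The nuclei held 1202240 UMIs with a median of 409. No barcode had more than 5000 genes. The limit of 200 genes did not fall in a gap. The 448 barcodes that fell 1 to 5 genes below it had a median of 279 UMIs, and the 325 barcodes with 200 to 204 genes had a median of 289. Their Malat1 levels were 50663 and 52994 UMIs per 1000000 UMIs of the pool (CPM), and their mitochondrial shares 0.917% and 1.01%. Gm42418 had 148595 and 150955 CPM and Ttn 28689 and 29288 CPM, while Spp1 had 1031 and 794 CPM. Barcodes on either side of the limit were thus close in depth and in these measures other than Spp1. Of the barcode sequences, 33 were shared with the day 5 library, 16 of them under 200 genes.

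With 1 library there was no replicate and no test. Levels are given in CPM and ratios as CPM under 200 genes over CPM in nuclei, with 95% intervals that cover counting error only. UMIs were counted over exons and introns together, and levels are compared between pools for a gene and not between genes. A gene was called richer in a pool when its ratio was at least 2-fold and its interval was clear of 1. At a mean of at least 20 CPM over both pools, 7182 genes were compared. Of these, 185 (2.58%) were richer under 200 genes and 75 (1.04%) were richer in nuclei. At 1.5-fold the counts were 620 (8.63%) and 662 (9.22%). The median ratio of all genes was 0.932 with quartiles of 0.778 and 1.14, a shift of -0.10 on the log2 scale. When ratios were scaled on this median, 263 genes were richer under 200 genes and 46 richer in nuclei. The sums in nuclei were not corrected for free RNA in their droplets.

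The barcodes under 200 genes were first checked for even mixing, since RNA in solution is spread over droplets at random. Of the 1406 genes with a mean of at least 100 CPM, the variance over barcodes was a median of 1.01 times that of an even mixture, and 58 genes exceeded 1.2. Most genes were thus spread as a mixture gives, although at these depths only strong clustering shows. Titin (Ttn), the giant spring protein of the sarcomere, was the most uneven gene at 21.3, followed by nebulin (Neb), the ruler of the thin filament, at 8.57. Gm42418, a noncoding transcript whose reads are a known sign of ribosomal RNA, stood at 4.07, and Malat1 at 2.66. Ttn was found in 76.0% of these barcodes where an even mixture gives 98.6%.

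The unevenness divided the barcodes into 2 kinds. In 3995 of the 43464 barcodes (9.19%), Gm42418 took under 7.5% of UMIs, and 94.9% of these 3995 had at least 15% of their UMIs on Ttn and Neb. Conversely, 3998 barcodes had at least 15% on Ttn and Neb, and 94.8% of those were under 7.5% Gm42418. Few barcodes lay between the kinds, with 289 at 10 to 15% Ttn and Neb, 135 at 15 to 20%, 943 at 20 to 30% and 2920 above 30%. These limits were set after the values had been seen. The 3791 barcodes that met both limits are called titin-rich, and the 39469 barcodes with at least 7.5% Gm42418 are called the main kind. The titin-rich barcodes had a median of 97 UMIs and the main kind 153. Most of the low-Gm42418 barcodes, 3653, had under 100 genes.

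**Figure D1:**
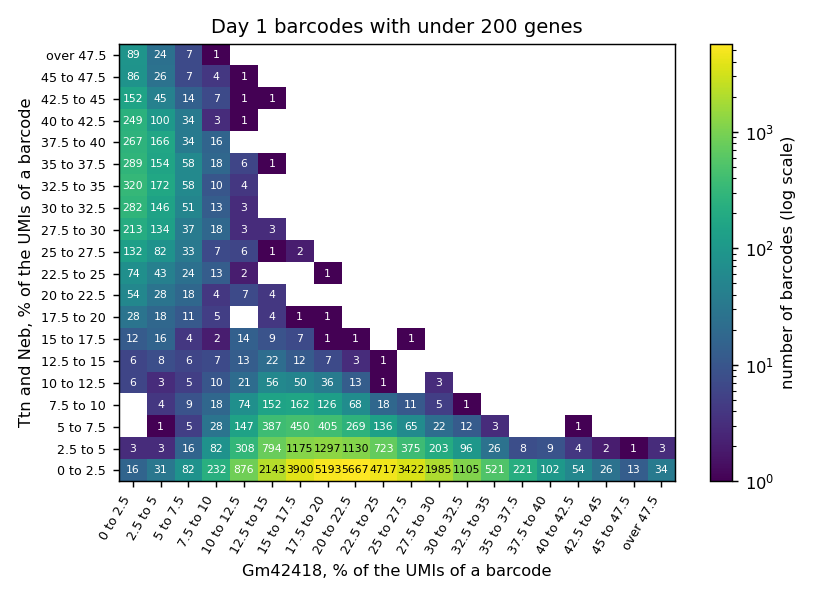
Number of day 1 barcodes with under 200 genes (color and digits, log color scale) by the share of their UMIs on Gm42418 (x axis, percent) and on Ttn and Neb (y axis, percent). A large group lies at 10 to 35% Gm42418 with under 5% Ttn and Neb, and a second group lies under 7.5% Gm42418 with 20% or more on Ttn and Neb.

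The titin-rich barcodes carried far more muscle RNA than the main kind, little or none of several groups of RNA that were common there, and others at like levels. Ttn stood at 271496 CPM in them, 17546 CPM in the main kind and 45858 CPM in nuclei, and Neb at 75007, 2711 and 6259 CPM. These levels follow from the choice of barcodes. Other muscle genes that the choice did not use were also richer than in the main kind. Acta1, skeletal alpha actin, was 14.8-fold richer at 3301 CPM. Tpm2, a tropomyosin, was 31.8-fold richer at 2632 CPM.

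The myosin heavy chains, the motors of the thick filament, were unequal. Myh2, the chain of fast oxidative IIa fibers, had 6175 CPM in the titin-rich barcodes, 85.7 CPM in the main kind and 152 CPM in nuclei. Myh3 and Myh8, the embryonic and perinatal chains, were 125-fold and 109-fold richer than in the main kind. Myh7, the chain of slow fibers, was 52.3-fold richer. Myh1, the IIx chain, was 9.88-fold richer. Myh4, the chain of the fastest IIb fibers, was 3.34-fold richer, with 1049 and 314 CPM, the smallest difference of these 6 chains. Myl1, a fast myosin light chain, was close, with 500 CPM in the titin-rich barcodes, 399 CPM in the main kind and 848 CPM in nuclei. The titin-rich barcodes thus held most of the Myh2 (81.5%), Myh3 (88.1%), Myh8 (87.7%) and Myh7 (76.7%) UMIs of all barcodes under 200 genes.

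Some genes outside muscle, picked after their values had been seen and from no list, were also richer in the titin-rich barcodes. Among these, which encode RNA-binding proteins, Pnisr was 17.4-fold, Srrm2 12.5-fold, Ddx5 5.02-fold and Rbm39 4.11-fold richer than in the main kind. Malat1 was close in both, at 32501 and 36658 CPM. Of the 1206 genes with a mean of at least 100 CPM over both kinds, 81 were at least 10-fold richer in the titin-rich barcodes and 28 had no UMI in them, which allows up to 7.22 CPM (3 UMIs).

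The scarce RNA included mitochondrial genes and genes of other cells. Mitochondrial genes together had 20 UMIs in the titin-rich barcodes, 48.1 CPM against 9610 CPM in the main kind, and 99.5% of these barcodes had no mitochondrial UMI. mt-Co3, Arg1, Ccl2, Ccl7 and Srgn had 0 UMIs. Spp1 (osteopontin) had 2 UMIs and S100a9, a neutrophil alarmin, 1 UMI. Airn and Xist, nuclear noncoding RNAs, had 1 UMI and 0 UMIs, where the main kind had 522 and 201 CPM. Neat1 had 60.1 CPM against 2930 CPM. The 26 neutrophil genes together had 2 UMIs, or 4.81 CPM against 1301 CPM. What these barcodes contain was not tested. Other RNA was present in both kinds. Ribosomal protein genes had 1665 CPM in the titin-rich barcodes and 2366 CPM in the main kind, cytoplasmic housekeeping genes 979 and 1815 CPM, and erythroid genes other than hemoglobin 539 and 547 CPM. This last sum held genes of both directions, and the hemoglobin genes had 4.81 and 48.2 CPM. In all low-Gm42418 barcodes and the main kind, Sptb had 203 and 63.5 CPM but Slc25a37 45.2 and 147 CPM. Since barcodes of 2 unlike contents made up the pool, it is called the barcodes under 200 genes and not free RNA. Results are given for all of them, and for some genes and groups also without the 3995 low-Gm42418 barcodes. Among 5523 barcodes with 200 genes and more, 69 had at least 15% Ttn and Neb and 35 of these were under 7.5% Gm42418. Of the 69, 62 were among the 2405 nuclei (2.58%), and so were all 35. They stayed in the nuclei pool in both settings, so such barcodes were left out of the other pool only. In those deeper barcodes a low Gm42418 share was common (634 barcodes), and 5.52% of these had at least 15% Ttn and Neb. Nuclei were therefore not filtered on that share. Titin was not absent from them, since the 428 nuclei under 7.5% Gm42418 had a median of 4.46% on Ttn and Neb. The median of all nuclei was 3.98%, and 8.18% of the 428 reached 15%.

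**Figure D2:**
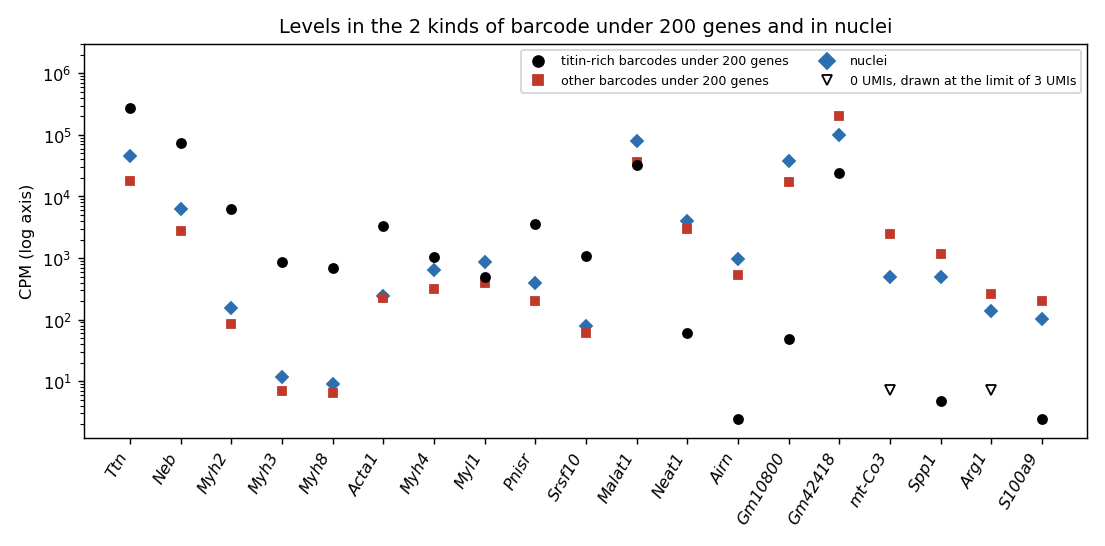
Levels of 19 genes (x axis) in CPM (y axis, log scale) in titin-rich barcodes under 200 genes (black circles), the main kind (red squares) and nuclei (blue diamonds). Open triangles mark genes with 0 UMIs in titin-rich barcodes, drawn at 7.22 CPM. Myh2, Myh3 and Myh8 are over 50-fold above the main kind in titin-rich barcodes, while mt-Co3, Spp1, Arg1 and S100a9 have 2 UMIs or fewer.

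When the low-Gm42418 barcodes were left out, 236 of 7247 genes (3.26%) were richer under 200 genes and 80 (1.10%) richer in nuclei. At 1.5-fold the counts were 710 (9.80%) and 609 (8.40%). The median ratio was 0.933 with quartiles of 0.787 and 1.16. The unevenness of Ttn fell to 5.15 and that of Neb to 2.03, and 21 genes exceeded 1.2. Gm10800, Malat1 and Gm42418 remained at 3.54, 2.78 and 2.59, and mt-Co3 was at 1.44. The main kind was thus not an even mixture for the 21 genes, Ttn and Neb among them.

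RNAs that are known to stay in the nucleus, other than Gm42418, were richer in nuclei. The 10 other nuclear-retained noncoding RNAs together had 40044 CPM under 200 genes and 84140 CPM in nuclei. Their ratio was 0.476 (0.473 to 0.479). All barcodes of 200 to 5000 genes, taken without the mt- and Rps/Rpl limits, had 69786 CPM of these 10. With Gm42418 the list of 11 had 230919 and 185314 CPM, a ratio of 1.246 (1.241 to 1.252). Among the 10, all 7 that were compared lay below 1, with a median of 0.642, and 2 passed 2-fold, beside 1.04% of all genes. Malat1 made up most of the sum of the 10, at 36424 and 78662 CPM, a ratio of 0.463 (0.460 to 0.467). Airn, the antisense RNA that silences the Igf2r cluster, had 489 and 967 CPM, a ratio of 0.505 (0.472 to 0.541). Meg3 had a ratio of 0.447 (0.334 to 0.603) and Kcnq1ot1 0.642 (0.566 to 0.729). Neat1, the scaffold of paraspeckles, was less skewed at 0.693 (0.672 to 0.716). The 7 ratios ran from 0.461 to 0.852 without the low-Gm42418 barcodes.

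Gm42418, in the same list, went the other way. It had 190875 CPM under 200 genes and 101174 CPM in nuclei, a ratio of 1.89 (1.88 to 1.90). The median share of a barcode on it was 19.7% under 200 genes and 11.0% in nuclei. AY036118, which overlaps it on the opposite strand of chromosome 17, had a ratio of 2.41 (2.34 to 2.48). Between the kinds AY036118 was close, with 8355 CPM in titin-rich barcodes and 9294 CPM in the main kind. Gm42418, which the choice used, had 23886 and 202284 CPM there. Both are annotated in the region 39846958 to 39848788 of mm10. Gm26917, a noncoding gene next to this region on the strand of Gm42418, went the other way. It had 2830 and 3811 CPM, a ratio of 0.743 (0.719 to 0.767). A set of 5 protein-coding genes among the most abundant in the library, chosen after their values had been seen, was skewed in the direction of Gm42418. These were Lars2 at 2.04, Cmss1 at 2.12, Gphn at 2.06, Camk1d at 1.78 and Cdk8 at 1.57. Gm42418, AY036118 and these 5 genes, a set picked for ratios above 1 and without Gm26917, together held 245534 CPM under 200 genes and 127981 CPM in nuclei.

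A second group richer in nuclei was 12 predicted genes annotated on chromosomes 2, 9 and 14, of which 6 were among the 10 lowest ratios of all genes with a mean of at least 100 CPM. The other 6 were added after their values had been seen. Gm10800 had 16151 and 37132 CPM, a ratio of 0.435 (0.430 to 0.440), and Gm10801 had 0.421 (0.413 to 0.429). All 12 were at least 2-fold richer in nuclei, with ratios from 0.407 to 0.442. Together they had 26247 and 61113 CPM. All barcodes of 200 to 5000 genes, taken without the mt- and Rps/Rpl limits, had 49824 CPM of the 12. Against that pool only 10 of all genes compared were at least 2-fold richer in the larger barcodes. The 2-fold call for all 12 thus depended on those limits. In titin-rich barcodes the 12 genes had 26 UMIs, or 62.5 CPM, against 27940 CPM in the main kind. These genes share sequence, so their single counts are uncertain and the 12 may not be independent.

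Their transcripts in the GENCODE M21 annotation of mm10 were tandem repeats. Each was shifted against itself by 150 to 320 bases, and 9 of 12 matched best at a shift of 234 bases, with 52.7 to 67.6% identical bases at the best shift over all 12. Among 5000 other transcripts of 600 to 700 bases the median best identity was 31.8%, and 0.4% reached 50%. Repeats of this length are those of the mouse major satellite of pericentromeric heterochromatin. Words of up to 40 bases were searched for presence in at least 11 of the 12 genes, and a word of 40 bases was taken. By that choice it was in 11 of the 12 genes, all but Gm10715. On either strand it was in 12 of 55341 annotated genes (0.0217%), the other being Gm26870. The word is shown in capitals in 4 of the genes with the bases around it, 5′ to 3′ along the transcript, because genes of 3 chromosomes share near-identical letters. How the authors assigned reads among the 12 genes was not tested.
Gm10719 (bases 164 to 323 of its transcript, chromosome 9): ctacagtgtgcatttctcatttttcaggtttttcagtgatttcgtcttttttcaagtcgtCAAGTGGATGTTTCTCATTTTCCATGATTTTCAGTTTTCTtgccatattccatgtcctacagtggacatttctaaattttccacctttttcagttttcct
Gm17535 (bases 398 to 557, chromosome 9): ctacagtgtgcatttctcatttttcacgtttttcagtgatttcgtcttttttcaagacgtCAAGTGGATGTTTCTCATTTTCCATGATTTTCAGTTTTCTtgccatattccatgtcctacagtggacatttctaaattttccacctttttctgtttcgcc
Gm21738 (bases 164 to 323, chromosome 14): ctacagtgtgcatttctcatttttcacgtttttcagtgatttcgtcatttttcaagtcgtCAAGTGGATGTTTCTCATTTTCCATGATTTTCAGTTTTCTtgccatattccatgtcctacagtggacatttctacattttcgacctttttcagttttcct
Gm10800 (bases 558 to 660, chromosome 2): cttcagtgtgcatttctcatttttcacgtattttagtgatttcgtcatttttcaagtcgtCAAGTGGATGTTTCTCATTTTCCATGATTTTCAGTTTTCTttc

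Muscle transcripts made up 55421 CPM of the barcodes under 200 genes and 73430 CPM of nuclei, summed over 3 lists of thin and thick filament, giant and membrane, and metabolic genes. Myogenic nuclei, which the study removed, were not taken out of the nuclei here. The ratio was 0.755 (0.749 to 0.760) with all barcodes and 0.443 (0.439 to 0.446) without the low-Gm42418 barcodes, which held 45.1% of the muscle UMIs of the pool. Of 39 genes compared, 2 were richer under 200 genes and 2 richer in nuclei, beside 2.58% and 1.04% of all genes. Without the low-Gm42418 barcodes, 0 of 38 were richer under 200 genes and 7 were richer in nuclei, and at 1.5-fold 0 and 21. The shares of all genes were then 3.26% and 1.10%, and 9.80% and 8.40% at 1.5-fold. The median ratio moved from 0.866 to 0.654. Against all 5523 barcodes with 200 to 5000 genes, which had 55595 CPM, the barcodes under 200 genes were level, with the interval of the log2 ratio on both sides of 0. The ratio for muscle thus depended on which barcodes were taken into either pool.

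The giant and membrane proteins of the fiber had a ratio of 0.741, and of 0.425 without the low-Gm42418 barcodes. Ttn had 33012 and 45858 CPM, a ratio of 0.720 (0.713 to 0.727) that became 0.383 (0.379 to 0.387) without the low-Gm42418 barcodes. Neb turned from 1.14 (1.11 to 1.17) to 0.433 (0.421 to 0.445). Dmd, which encodes dystrophin, had 0.630 (0.614 to 0.646). Trdn (triadin) had 0.692 and Xirp2 0.557, and without the low-Gm42418 barcodes 0.504 and 0.557. All 5 of these genes were lower under 200 genes than in nuclei once those barcodes were left out.

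Thin and thick filament genes had 0.873 and 0.574. Myl1 had 406 and 848 CPM, a ratio of 0.478 (0.445 to 0.515), Tnnt3 (fast troponin T) 0.529 (0.497 to 0.564) and Myh4 0.552 (0.509 to 0.599). These 3 ratios were 0.471, 0.503 and 0.484 without the low-Gm42418 barcodes, so they rested little on them. Myh1 had 0.866 (0.815 to 0.920) and Mybpc1, a myosin-binding protein, 0.922 (0.868 to 0.981), and both moved to 0.560 and 0.590. Myh2 had 460 and 152 CPM and Myh7 42.6 and 9.15 CPM. Their ratios of 3.02 and 4.66 became 0.563 (0.475 to 0.669) and 1.13 (0.590 to 2.37), so the direction of Myh2 turned and that of Myh7 was lost.

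Transcripts of muscle metabolism differed less. The 13 listed genes had 682 and 722 CPM, a ratio of 0.945 (0.879 to 1.02) that became 0.858 (0.797 to 0.925) without the low-Gm42418 barcodes. Below 1 were 4 of the 8 genes compared, and then 6 of 8. Eno3, muscle enolase, moved from 1.16 (0.926 to 1.48) to 0.722. Ckm, muscle creatine kinase, had 128.9 and 148.9 CPM, a ratio of 0.866 (0.737 to 1.02). Car3, carbonic anhydrase III, had 0.676 (0.557 to 0.825). Pvalb (parvalbumin) had 0.631 (0.469 to 0.862), and Mb (myoglobin) 1.46 (0.928 to 2.42). Of these 8, 0 were called in either direction at 2-fold.

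**Figure D3:**
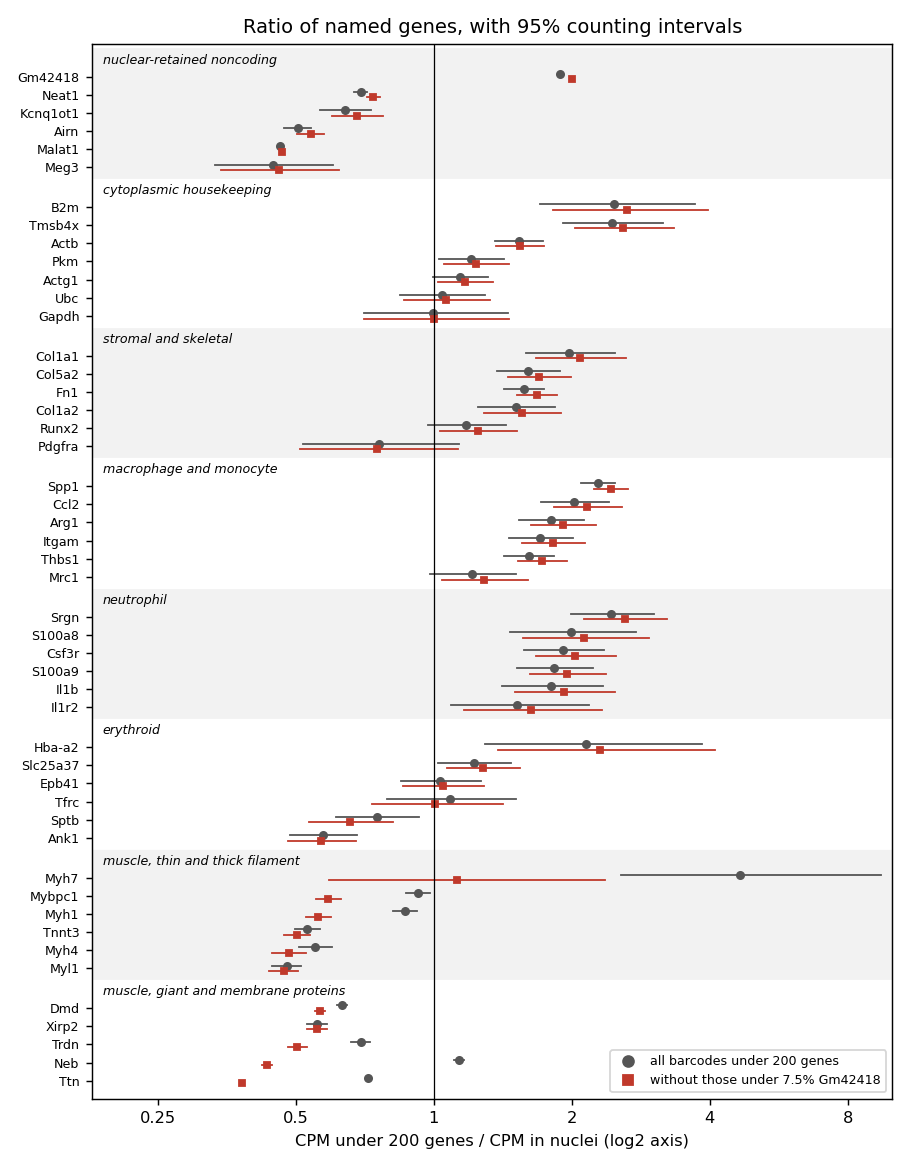
Ratio of CPM under 200 genes to CPM in nuclei (x axis, log2 scale) for named genes of 8 lists, with 95% counting intervals. Grey circles use all barcodes under 200 genes and red squares leave out those with under 7.5% Gm42418. Neutrophil and macrophage genes lie to the right of 1, nuclear noncoding RNAs other than Gm42418 to the left, and of the genes plotted Ttn, Neb, Myh1, Mybpc1 and Myh7 move most between both settings.

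Neutrophil transcripts were richer under 200 genes. The 26 genes had 1220 CPM there and 650 CPM in nuclei, a ratio of 1.88 (1.74 to 2.02). All 12 that were compared passed 1.5-fold, with ratios from 1.52 to 2.44 and a median of 1.87, and 2 passed 2-fold. Over all genes, 8.63% passed 1.5-fold and 2.58% passed 2-fold in this direction. S100a8, the partner of S100a9 in calprotectin, had 510 UMIs and 74.5 CPM against 45 UMIs and 37.4 CPM, a ratio of 1.99 (1.47 to 2.76). S100a9 had 186 and 101 CPM, a ratio of 1.83 (1.52 to 2.22). Srgn, the proteoglycan core of granules, had 201 and 82.3 CPM, the highest ratio of the 12 genes compared at 2.44 (1.99 to 3.02). Csf3r, the G-CSF receptor, had 1.91 (1.57 to 2.35), Il1b, the cytokine interleukin 1 beta, 1.80 (1.41 to 2.34) and Il1r2, its decoy receptor, 1.52 (1.09 to 2.18).

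Genes of secondary granules, which are transcribed in the marrow, were scarce in both pools. Ltf (lactoferrin) had 224 UMIs under 200 genes and 25 in nuclei, a ratio of 1.57 (1.04 to 2.48). Ngp had 122 and 10 UMIs, and Camp 86 and 6. Ngp and Camp were below the level for comparison, with intervals of 1.13 to 4.58 and 1.11 to 7.05. Also below it, Lcn2 had 1.78 (0.860 to 4.26) and Mmp8 1.05 (0.535 to 2.31). Of the listed genes below that level, only Slpi at 0.829 (0.494 to 1.47) and Stfa2l1 at 0.948 (0.478 to 2.09) had ratios under 1. All 12 neutrophil genes compared also passed 1.5-fold without the low-Gm42418 barcodes, and 6 passed 2-fold.

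Macrophage and monocyte transcripts were skewed to a similar degree. The 32 genes had 3907 CPM under 200 genes and 2105 CPM in nuclei, a ratio of 1.86 (1.78 to 1.93). Of 20 genes compared, 16 passed 1.5-fold and 4 passed 2-fold, none was richer in nuclei, and the median ratio was 1.80. The shares of all genes that passed were 8.63% and 2.58%. Spp1, a secreted matrix phosphoprotein, had 7593 UMIs and 1109 CPM against 487 CPM, a ratio of 2.28 (2.09 to 2.48). The chemokine Ccl2 had 252 and 125 CPM, a ratio of 2.02 (1.71 to 2.41). Arg1, arginase, had 247 and 137 CPM, a ratio of 1.80 (1.53 to 2.12). Itgam (CD11b) had 1.71 (1.46 to 2.01) and Thbs1 (thrombospondin) 1.61 (1.43 to 1.83). The study also lists Ccl2, Ccl7 and Cxcl2 as factors of its periosteal fibrogenic cells. Which cells the RNA of the neutrophil and macrophage lists came from was not tested.

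Receptors of the list spread over much of its range. Ccr2, the receptor of Ccl2, had 1.95 (1.45 to 2.68) and the scavenger receptor Msr1 1.87 (1.503 to 2.34). Adgre1 (F4/80) had 68.2 and 44.9 CPM, a ratio of 1.52 (1.14 to 2.05), and Csf1r 1.42 (0.996 to 2.10). Mrc1 (CD206) was lowest of the 20 genes compared at 1.21 (0.981 to 1.51). The intervals of Adgre1, Csf1r and Mrc1 overlapped one another, and that of Adgre1 also held the ratios of Ccr2 and Msr1. Cd68 had 65 UMIs under 200 genes and 4 in nuclei, and was below the level for comparison. These ratios were smaller against larger barcodes taken without the mt- and Rps/Rpl limits. In all 5523 barcodes with 200 to 5000 genes, macrophage genes had 2976 CPM and neutrophil genes 768 CPM, above the 2105 and 650 CPM of nuclei.

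Erythroid transcripts were scarce and not of 1 kind. The 4 hemoglobin genes had 313 UMIs under 200 genes and 23 in nuclei, or 45.7 and 19.1 CPM, a ratio of 2.39 (1.56 to 3.82). Hba-a2 had 196 and 16 UMIs, a ratio of 2.15 (1.29 to 3.84), and Hbb-bs 61 and 3 UMIs, with an interval of 1.16 to 17.8. Alas2, the first enzyme of heme synthesis in red cells, had 34 and 3 UMIs. The 16 other erythroid genes in the counts had 546 and 613 CPM, a ratio of 0.891 (0.823 to 0.966). Among these, Ank1 (ankyrin 1) had 0.574 (0.485 to 0.681) and Sptb (beta spectrin) 0.752 (0.613 to 0.929), and muscle fibers also express both. Slc25a37, the mitochondrial iron importer, had 1.22 (1.02 to 1.47). Of the 7 genes compared, only Hba-a2 was called at 2-fold.

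Mitochondrial transcripts had 9024 CPM under 200 genes and 1978 CPM in nuclei, a ratio of 4.56 that the 0.5% limit sets. Against all 5523 barcodes with 200 to 5000 genes, which had 9315 CPM, the ratio was below 1. Mitochondrial RNA was thus as common in larger barcodes as in small ones before that limit. The 90 ribosomal protein genes seen under 200 genes had 2330 and 1634 CPM, a ratio of 1.43 (1.36 to 1.495), with 2038 CPM in all barcodes of 200 to 5000 genes. Of 42 compared, 14 passed 1.5-fold and 5 passed 2-fold, which is a description since the 2.5% limit used these genes. Nuclear genes of the respiratory chain had 553 and 489 CPM, a ratio of 1.13 (1.04 to 1.24). Of 8 compared, 1 passed 1.5-fold, beside 8.63% of all genes.

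Cytoplasmic housekeeping genes had 1765 CPM under 200 genes and 1208 CPM in nuclei, a ratio of 1.46 (1.38 to 1.54). Of 16 compared, 8 passed 1.5-fold and 2 passed 2-fold, beside 8.63% and 2.58% of all genes. Tmsb4x (thymosin beta 4) had 142 and 58.2 CPM, a ratio of 2.45 (1.92 to 3.16), and B2m, the light chain of MHC class I, 2.47 (1.70 to 3.71). Actb had 1.53 (1.36 to 1.73). Gapdh stood at 0.998 (0.704 to 1.45), with 31.5 and 31.6 CPM. The 2 highest ratios were thus of genes that leukocytes express strongly, and Gapdh was level.

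Stromal and skeletal genes had 1643 and 1145 CPM, a ratio of 1.43 (1.36 to 1.52). Of 12 compared, 4 passed 1.5-fold and none 2-fold, beside 8.63% and 2.58% of all genes. The collagen genes Col1a1, Col5a2 and Col1a2 had ratios of 1.98 (1.59 to 2.49), 1.60 (1.37 to 1.89) and 1.51 (1.25 to 1.84), and Fn1, fibronectin, 1.57 (1.42 to 1.74). Runx2, the transcription factor of osteoblasts, had 1.18 (0.973 to 1.43), and the receptor gene Pdgfra 0.759 (0.520 to 1.14). Other matrix genes lay close to Runx2, with Col3a1 at 1.203 (0.984 to 1.48), Sparc at 1.11 (0.793 to 1.59) and Col6a3 at 1.01 (0.763 to 1.35). The matrix genes thus had no common ratio. All barcodes of 200 to 5000 genes had 1609 CPM of this list, close to the 1643 CPM under 200 genes.

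Endothelial genes had 416 and 438 CPM, a ratio of 0.951 (0.866 to 1.05), and 0 of 7 were called at 1.5-fold. The 6 platelet genes had 177 UMIs and 25.8 CPM under 200 genes and 33 UMIs and 27.4 CPM in nuclei, and none was compared. Lymphoid genes had a ratio of 1.13 (1.03 to 1.26). Within that list Ms4a1, the gene of the B cell protein CD20, had 1.76 (1.39 to 2.25) and the T cell receptor chain gene Cd247 0.527 (0.356 to 0.796). The Schwann list had 97.5 and 106 CPM, and the keratinocyte list, which served as a check on skin, 10.5 and 7.49 CPM.

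Immediate early and heat shock genes had 1171 and 882 CPM, a ratio of 1.33 (1.25 to 1.42). Of 15 compared, 3 were richer under 200 genes and none richer in nuclei at 2-fold, and at 1.5-fold 5 and 2. The shares of all genes were 2.58% and 1.04% at 2-fold and 8.63% and 9.22% at 1.5-fold. Nfkbia, the inhibitor of NF-kB, had 228 and 108 CPM, a ratio of 2.11 (1.76 to 2.54). Zfp36, which destabilizes messenger RNAs, had 2.21 (1.66 to 3.00). Atf3, a stress transcription factor, was at the other end with 42.8 and 75.7 CPM, a ratio of 0.565 (0.445 to 0.723).

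Over all genes but the mt- and Rps/Rpl genes, the ratio fell with the length of the gene in the genome. The median ratio was 1.30 for 380 genes spanning under 10 kb, 1.03 for 10 to 30 kb, 0.949 for 30 to 100 kb, 0.881 for 100 to 300 kb and 0.838 for 593 genes over 300 kb. In the shortest class 37.1% of genes were at least 1.5-fold richer under 200 genes, against 2.19% of the longest. In the other direction, 13.2% of the shortest class and 8.43% of the longest were at least 1.5-fold richer in nuclei, with 10.7% at 100 to 300 kb. The medians were 1.26, 1.01, 0.947, 0.890 and 0.867 without the low-Gm42418 barcodes. Genes with 1 exon block had a median of 1.54 (35 genes) and those with 20 or more 0.900 (2130 genes). Exonic length showed a smaller span, from 0.972 at 2 to 4 kb to 0.905 over 8 kb. The longest genes, which are mostly intron, thus had the lowest median but not the highest share of genes richer in nuclei, and the quartiles of neighbouring classes overlapped.

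The sum of UMIs changed less than these medians. Genes spanning at least 100 kb held 337172 CPM under 200 genes and 363993 CPM in nuclei, a ratio of 0.926 (0.923 to 0.929). This was close to the median ratio of 0.932 over all genes, and with ratios scaled on that median the log2 ratio of the sum was -0.0085. Of 2567 compared, 82 were at least 1.5-fold richer under 200 genes and 260 in nuclei. Over all 7182 genes the counts were 620 (8.63%) and 662 (9.22%).

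**Figure D4:**
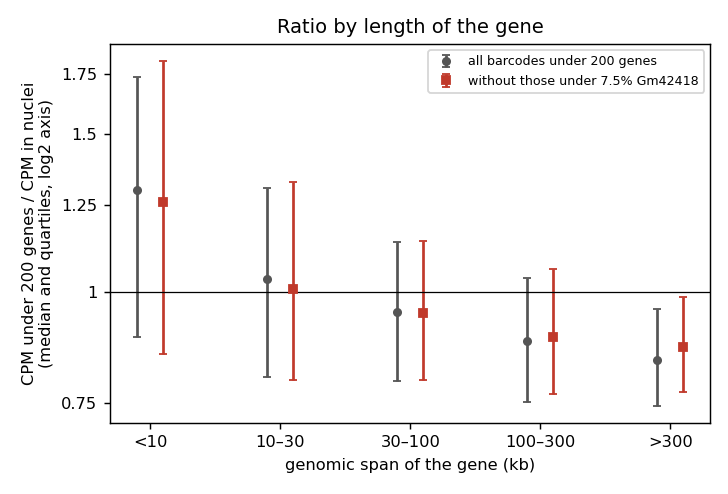
Median and quartiles of the ratio of CPM under 200 genes to CPM in nuclei (y axis, log2 scale) by the genomic span of the gene in kb (x axis). Grey circles use all barcodes under 200 genes and red squares leave out those with under 7.5% Gm42418. The median falls from 1.30 to 0.838 with all barcodes and from 1.26 to 0.867 without the low-Gm42418 barcodes.

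The skew was gradual over the number of genes per barcode and not a step at 200 genes. Barcodes were binned at 0, 100, 150, 200, 300 and 500 genes, each bin running up to the next limit, before the mitochondrial and ribosomal limits. Neutrophil genes had 1242, 1268, 1090, 895, 722 and 482 CPM in these bins. Macrophage genes went from 3811 and 4114 CPM in the first bins to 2841 and 2451 CPM in the last. Cytoplasmic housekeeping genes went from 1826 to 1173 CPM. Hemoglobin genes went from 46.9 CPM to 24.9 CPM, with few UMIs in the last bins. Each of these groups thus had its lowest levels in barcodes of 300 and more genes.

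The 12 repeat genes ran the other way, from 16623 CPM under 100 genes to 46070 CPM from 300 genes and 88476 CPM from 500 genes. Gm42418 and the 6 genes skewed like it went from 262140 to 89788 CPM. Malat1 rose from 31446 CPM to 72441 CPM from 300 genes and was at 68029 CPM from 500 genes. Muscle genes had 86235 CPM under 100 genes, 36773 CPM from 100 genes and 60981 CPM from 300 genes. Without the low-Gm42418 barcodes the first bin had 26393 CPM, the lowest of the 6, so the excess in the first bin lay in those barcodes. Mitochondrial genes stayed between 7351 and 10064 CPM with no steady trend.

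**Figure D5:**
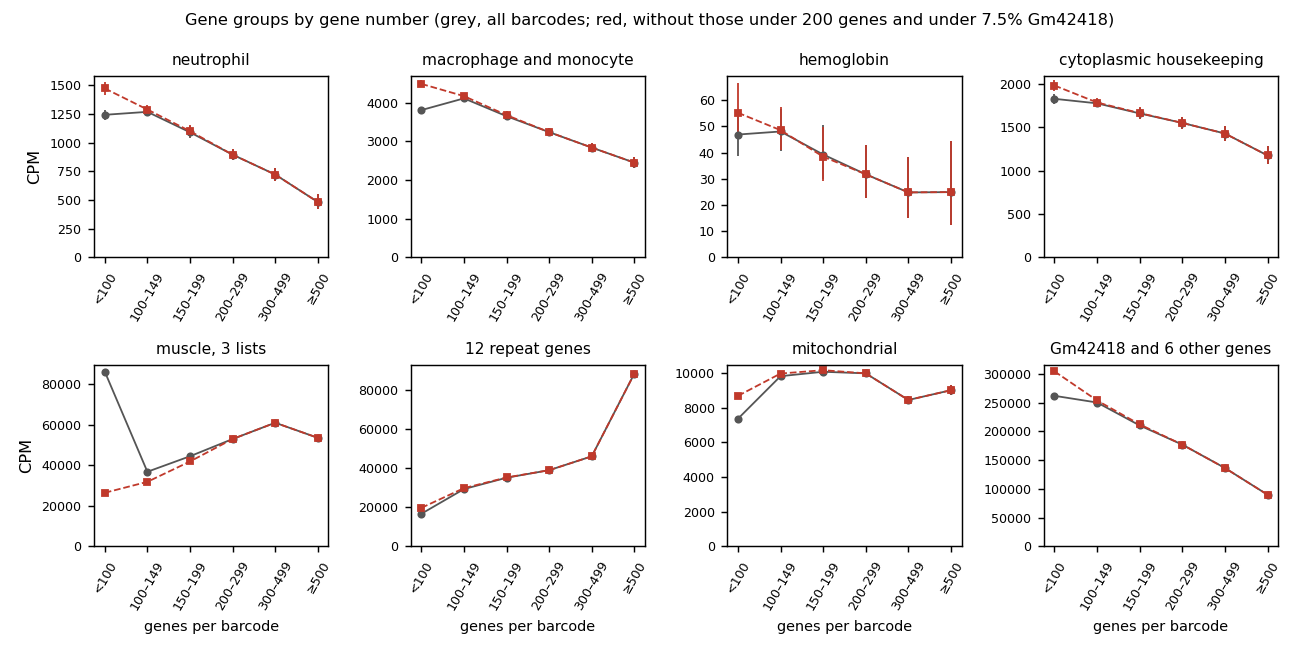
Summed CPM (y axes, from 0) of 8 gene groups by the number of genes per barcode (x axis), with 95% Poisson intervals. Grey circles are all barcodes and red squares leave out those under 200 genes with under 7.5% Gm42418. Neutrophil, macrophage, hemoglobin and housekeeping genes fall with gene number, the 12 repeat genes rise to 88476 CPM, and muscle genes differ between both lines most in the first bin, at 86235 and 26393 CPM.

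Among single genes with a mean of at least 100 CPM outside mt- and Rps/Rpl, the lowest ratio was that of Ankrd23, a titin-binding stress protein of muscle, at 0.377, with 187 and 496 CPM. The noncoding Gm28653 followed at 0.387, and Alpk3, a kinase of striated muscle, had 0.429. The highest, after Myh2, was Selenon, a selenoprotein of the endoplasmic reticulum, at 2.72 with 197 and 72.4 CPM. Vmn2r103 had 2.68, 1700054A03Rik 2.48 and Xlr5a 2.44. Without the low-Gm42418 barcodes, Selenon led at 2.90 (2.33 to 3.65), and Slx1b (2.56), Sec61a1 (2.55), which encodes the pore of the secretory pathway, and Vit (2.53) were among the 10 highest. Ttn, Neb, Ryr1, Rbm24 and D5Ertd579e were then among the 10 lowest.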

How the data were processed

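The deposited values were UMI counts per gene and barcode, made by the authors with Cell Ranger 7.0.1 on mm10, per the submitters' processing notes. Reads in introns were counted with those in exons. A protocol in the labels names a human reference, but all 32285 gene identifiers were mouse, and those were used. Doublets were not called and no ambient correction was made, since all barcodes of a pool were summed. With 1 library a condition there was no replicate, so no test was run.

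Counts were summed over barcodes by gene and divided by the pool total (CPM). Levels have exact Poisson intervals and ratios exact conditional binomial intervals at 95%, covering counting error only, and cells of 1 library are not replicates. Genes with a mean of at least 20 CPM over both pools were compared. Named genes were, per list, up to 5 by mean CPM plus those of highest and lowest ratio, and the 10 highest and 10 lowest ratios of genes with a mean of at least 100 CPM. Other genes, among them the satellite-like genes beyond those 10, the abundant genes, the other myosins and the receptor, granule and hemoglobin genes, were named after their values were seen. The members and all gene lists were chosen with earlier results of these data known. Evenness was the variance over barcodes divided by the Poisson variance given each barcode's total. Gene spans came from GENCODE M21 for 32235 genes (99.8%). A listed muscle gene is counted in its list and not reported here by name. The ratios were tested on simulated counts. Alternatives for pools, scaling, filters and fold are given in the closing section. Python 3.11.15, numpy 2.4.6, scipy 1.17.1, pandas 2.3.3 and matplotlib 3.10.9 were used.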

Additional observations from a re-analysis of the deposited data

How the results depend on the processing

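Of 98 alternative values, 33 stayed within the counting interval or within 1.5 times the count, 3 changed sign and 46 moved. Another 16 were counts that rose or fell by more than 1.5 times. The change of sign for erythroid genes was between values whose intervals both held 0. No paired analysis was possible because each condition had 1 library, and for the same reason no replicate could be left out. Class values are log2 ratios, with main values of 2.19 for mitochondrial, 0.38 for ribosomal, -0.41 for muscle, -0.095 for erythroid, 0.91 for neutrophil, 0.89 for macrophage and -0.11 for long genes. Ribosomal here means all 101 Rps and Rpl genes, 11 Rps6k kinase and Rps19bp1 genes included, and not the 90 ribosomal protein genes alone. The cause of the changes between settings was not tested.

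With only barcodes under 100 genes, muscle turned to 0.23, mitochondrial was 1.89, long genes -0.060, and 345 genes were richer in nuclei. With 150 genes and more but under 200, 28 genes were richer in nuclei, mitochondrial was 2.35, muscle -0.72, neutrophil 0.75, macrophage 0.80 and long genes -0.10. With nuclei chosen by gene limits alone, 78 genes were richer under 200 genes and 10 in nuclei, mitochondrial turned to -0.046, ribosomal was 0.14, muscle -0.0045, neutrophil 0.67, macrophage 0.39 and long genes -0.059. With nuclei of 500 to 5000 genes the counts were 513 and 612, mitochondrial 2.31, ribosomal 0.68, muscle -0.33, erythroid -0.33, neutrophil 2.06, macrophage 1.545 and long genes -0.13.

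With totals that leave out mt- and Rps/Rpl UMIs, muscle was -0.39 and long genes -0.099. With ratios scaled on the median, 46 genes were richer in nuclei, mitochondrial was 2.29, ribosomal 0.48, muscle -0.30, macrophage 0.99 and long genes -0.0085. Erythroid was then 0.0072 (-0.105 to 0.121), where the main value had an interval of -0.207 to 0.019. With every barcode given equal weight, mitochondrial was 2.105, ribosomal 0.30, muscle -0.11, neutrophil 0.69, macrophage 0.73 and long genes -0.086. In a split by UMI total, both pools were set by that total alone, without the mt- and Rps/Rpl limits. Barcodes of middle UMI totals were in neither pool. There, 134 genes were richer in the larger barcodes, mitochondrial was 0.096, ribosomal 0.26, muscle -0.15, neutrophil 1.19, macrophage 0.67 and long genes -0.088. Mitochondrial was -0.046 when only the mt- and Rps/Rpl limits were dropped, and the effect of UMI totals by themselves was not tested.

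Both alternatives that leave out barcodes were chosen after seeing the data. Without the low-Gm42418 barcodes, mitochondrial was 2.28, muscle -1.18, macrophage 0.98 and long genes -0.18. Without the 3998 barcodes with at least 15% Ttn and Neb, at any Gm42418 share, mitochondrial was 2.285, muscle -1.225, macrophage 0.98 and long genes -0.18. Ttn and Neb are counted among the muscle genes and the long genes, so these muscle and long-gene values follow in part from the choice. Under each alternative for the pools, scaling and weights given up to here, neutrophil, macrophage and ribosomal genes were above 0 and long genes below 0. With ratios scaled on the median, long genes were at -0.0085 and so close to the typical gene. The counts of genes richer under 200 genes and in nuclei were 326 and 192 at a mean of 10 CPM, 92 and 40 at 50 CPM, 498 and 686 for any gene with a UMI in both pools, and 620 and 662 at 1.5-fold. A gene at 20 CPM had about 137 UMIs under 200 genes but 24 in nuclei, so the nuclei limit the precision.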
